A study of Mus musculus with 6 samples.

Results

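Tubulin isotypes are the separate genes for alpha-tubulin and beta-tubulin, the paired proteins from which microtubules are built. The genes described here were taken by symbol from the gene coverage values of 6 RNA libraries. They were 10 of the 24982 genes listed, 4 for alpha-tubulin (Tuba1a, Tuba1b, Tuba1c and Tuba4a) and 6 for beta-tubulin (Tubb2a, Tubb2b, Tubb3, Tubb4b, Tubb5 and Tubb6). Of the 10, 9 passed the filter on low coverage and were tested with 12409 genes in all, and Tubb2b, listed at 0 in every library, did not pass it.

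The libraries came from a pair of mouse keratinocyte lines of strain C57BL/6, grown from neonatal skin and given no treatment. The line called KSFM-Ca2+ was isolated and kept in a serum-free medium low in calcium. The line called DKSFM was made by moving KSFM-Ca2+ cells to the medium DKSFM, in which, by the study's account, most cells were lost and the survivors grew out. Each line gave 3 libraries, and the comparison asks how the lines differ at the level of RNA. The study mentions independent experiments and biological triplicates for its statistics in general, but does not say for these libraries whether the 3 of a line came from separate cultures, so p-values measure the spread between these libraries, which may be technical. Summed gene coverage was 1601676, 1238411 and 1057750 in the KSFM-Ca2+ libraries and 1174348, 1239438 and 1170675 in the DKSFM libraries. Values below are coverage after scaling between libraries. Coverage is read here as the mean depth of reads over the bases of a gene, a scale per length on which genes can be compared.

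The keratinocyte label was checked first. All 7 keratinocyte markers had coverage in every library, with summed normalized coverage of 19154, 19516 and 19218 in KSFM-Ca2+ and 47849, 44207 and 48297 in DKSFM. Krt14, a keratin of the basal layer, was the most abundant of them at 11975 ± 225 in KSFM-Ca2+ and 29719 ± 1517 in DKSFM (mean ± SD, n = 3). Its partner Krt5 stood at 4684 ± 26.1 and 11148 ± 791. In limma's test over all genes, 6 of the 7 rose in DKSFM, where 35.5% of all tested genes were called higher. They were Krt5, Krt14, the epidermal transcription factor Trp63, the integrin Itga6, the desmosomal protein Dsp and the junction protein Perp, while the integrin Itgb4 fell. The rises of Trp63 and Itga6 were small, with log2 fold changes of 0.13 and 0.14.

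Alpha-tubulin and beta-tubulin join as a dimer, and dimers add end to end into the wall of the hollow microtubule, which carries cargo, shapes the cell and forms the mitotic spindle. Isotypes of each family are alike over most of their length and differ most in the tail that faces outward, where motors, associated proteins and modifying enzymes bind. In keratinocytes, microtubules leave the centrosome for the cell cortex as the cells differentiate. The amount of tubulin is held in check by autoregulation, in which free tubulin leads to decay of tubulin mRNA on ribosomes, through recognition by Ttc5 of the first residues of the growing chain.

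The alpha genes lie at chr15:98949837-98953703 (Tuba1a, minus strand), chr15:98931425-98934565 (Tuba1b, minus strand), chr15:99029891-99038110 (Tuba1c, plus strand) and chr1:75214228-75219865 (Tuba4a, minus strand) in build GRCm38, by the GENCODE M21 annotation.

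The start of the coding region is shown for 5 beta genes because these first codons carry the stretch read in autoregulation, and because likeness between members bears on how reads can be assigned. Each run below is the first 45 coding bases of 1 annotated transcript (GENCODE M21, build GRCm38), 5′ to 3′, with the first 4 codons in capitals. The genes lie at chr17:35833921-35838306 (Tubb5, minus strand), chr2:25222160-25224702 (Tubb4b, minus strand), chr13:34074274-34078007 (Tubb2a, minus strand), chr13:34126748-34130466 (Tubb2b, minus strand) and chr8:123411424-123422015 (Tubb3, plus strand).
Tubb5: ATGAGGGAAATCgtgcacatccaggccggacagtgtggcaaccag
Tubb4b: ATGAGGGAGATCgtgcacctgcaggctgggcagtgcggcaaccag
Tubb2a: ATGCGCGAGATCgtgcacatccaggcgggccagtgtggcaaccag
Tubb2b: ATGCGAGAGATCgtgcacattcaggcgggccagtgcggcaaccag
Tubb3: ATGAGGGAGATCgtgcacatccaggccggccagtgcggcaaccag
Measured against Tubb5 over 45 bases, Tubb3 had 3 differences, Tubb2a 5, Tubb4b 6 and Tubb2b 7. The first 4 codons had 4 spellings among these 5 genes, and Tubb3 shared its spelling with Tubb4b.

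To see where close copies could share reads, each stretch of 85 bases, the length of a read, in 1 transcript of each member was looked up in the transcripts of every other annotated gene. Such a window was also present in another gene for 71.1% of Tuba1b, 66.7% of Tuba1a and 55.4% of Tuba1c. For Tuba1c all of the shared windows were found in another member, with 852 windows in common with Tuba1b and 647 with Tuba1a. The share was 40.9% for Tubb2a, 30.4% for Tubb2b and 33.9% for Tubb4b. Tubb2a and Tubb2b had 588 windows in common, and the shared windows of Tubb4b were found in processed pseudogenes, chiefly Tubb4b-ps1 with 471. For Tuba4a, Tubb3, Tubb5 and Tubb6 the share was 0%, so a read of that length with no mismatch matched no other annotated transcript. The study's methods name Salmon for quantification, but whether the coverage values come from that step, and how they treat reads that fitted several genes, is not given in the sources used here. The separate values of Tuba1a, Tuba1b and Tuba1c are uncertain for that reason, and so are those of Tubb2a, Tubb2b and Tubb4b. Comparisons of level between these genes and members with no shared windows carry the same uncertainty. On the same strand, Tuba1a and Tuba1b overlap the annotated gene Gm49450 and Tubb3 overlaps Gm20388.

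**Figure D1:**
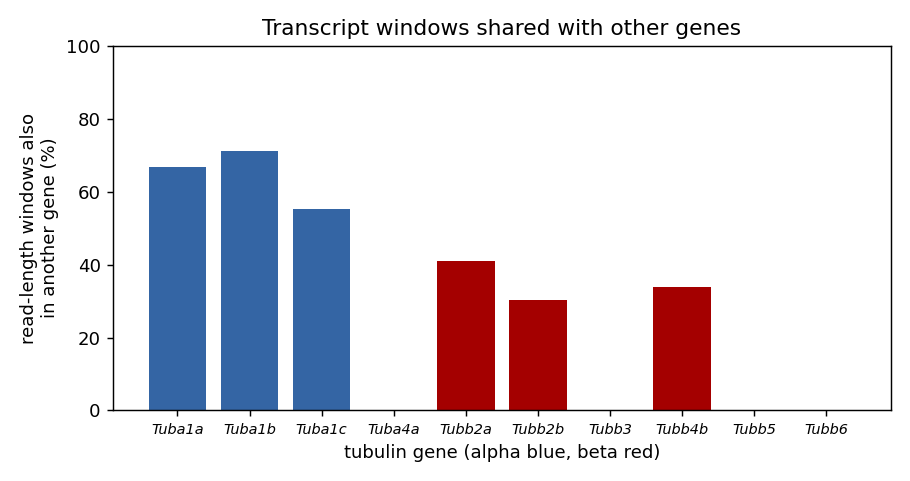
Bars give, for each tubulin gene, the percent of 85-base windows of its transcript that also occur in a transcript of another gene. Tuba1a, Tuba1b and Tuba1c lie between 55.4% and 71.1%, and Tuba4a, Tubb3, Tubb5 and Tubb6 are at 0%.

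Tubulin genes took a smaller part of the RNA in DKSFM than in KSFM-Ca2+, and the mix of isotypes differed. Most of the fall lay in Tubb5 and Tubb6, 2 abundant beta genes with no shared windows. Summed over the 10 members, normalized coverage was 3446, 3394 and 3628 in KSFM-Ca2+ and 1831, 1625 and 1775 in DKSFM. The lines did not overlap, and the mean went from 3489 ± 122 to 1744 ± 107 (SD, n = 3), 2.001-fold lower in DKSFM (exact permutation test, two-sided, p = 0.1, the smallest that 3 against 3 allows). In bulk RNA, fewer cells of a kind and less RNA per cell cannot be told apart.

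Of the 9 members tested, 7 fell in DKSFM and 2 rose at an adjusted p under 0.01 (limma). Among all 12409 genes tested, 37.1% were called lower and 35.5% higher by the same rule. A fall of at least 2-fold was called for 3 members, Tubb6, Tubb5 and Tuba1c, and a rise of that size for 0 members, against 10.5% of all genes lower and 13.2% higher. The libraries of the lines did not overlap for any of the 9, which was also so, with DKSFM lower, for 42.1% of all genes and, with DKSFM higher, for 41.2%. The median log2 fold change was -0.83 over the 9 members and -0.00118 over all genes tested.

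**Figure D2:**
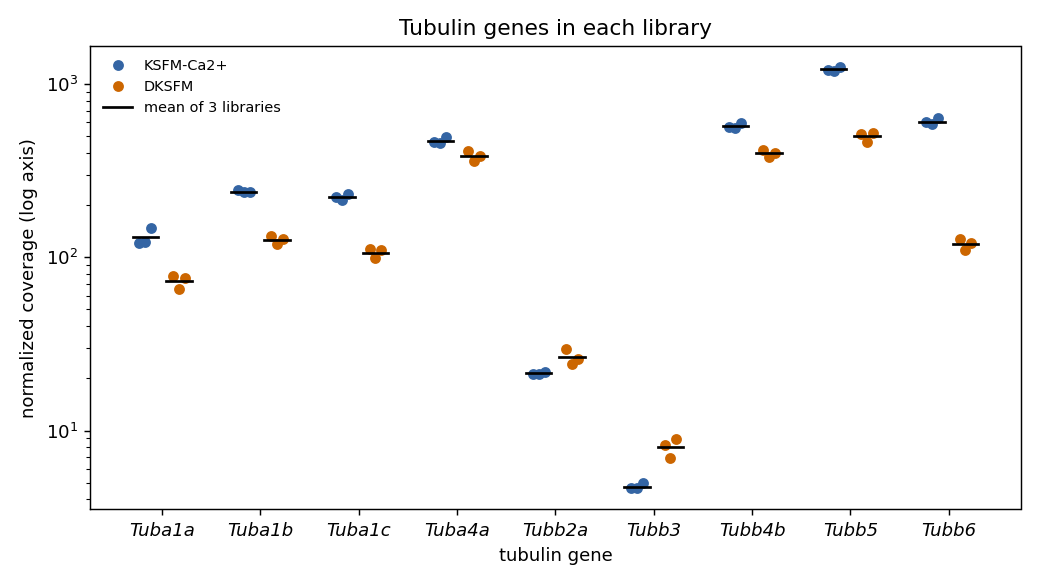
Points are normalized coverage (log axis) of the 9 detected tubulin genes in each of the 3 KSFM-Ca2+ and 3 DKSFM libraries, and black lines are means of 3 libraries. Tubb6 drops from a mean of 607 to 119.7, and Tubb2a and Tubb3 are the members with higher points in DKSFM.

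Among the alpha genes, Tuba4a had the highest coverage in both lines. This rank may depend on how reads shared by the other alpha genes were treated. Tuba4a stood at 461, 457 and 496 in KSFM-Ca2+ and at 411, 359.5 and 384 in DKSFM. The lowest KSFM-Ca2+ library lay above the highest DKSFM library by less than the range within DKSFM. The log2 fold change was -0.29 ± 0.05 (SE), with an adjusted p of 0.00103 in limma, so of the alpha genes it had the smallest change. With only the 4 libraries whose files are marked as combined, of which 1 is from KSFM-Ca2+, its log2 fold change was -0.37. The call was lost there, where the spread comes from the DKSFM libraries alone, although the fold was no smaller. In the other alternatives its adjusted p lay between 0.000407 and 0.00666 (limma). The 76 other tested genes within 10 Mb of Tuba4a had a median log2 fold change of -0.26, close to that of Tuba4a. For the 708 of chromosome 1 the median was -0.42.

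Tuba1a, Tuba1b and Tuba1c lie within the same stretch of chromosome 15 and are the widely used alpha genes, Tuba1a being the main form of developing neurons. Tuba1b stood at 244, 237 and 238 in KSFM-Ca2+ and at 133, 119 and 128 in DKSFM, a wide gap between tight groups. Its log2 fold change was -0.92 ± 0.04 (SE; adjusted p 2.7e-07, limma). Tuba1c had 222, 214 and 233 against 111, 98.9 and 109.6, all DKSFM libraries again being lower, with a log2 fold change of -1.07 ± 0.05 (adjusted p 3.7e-07, limma).

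Tuba1a was the lowest of the alpha genes, at 121, 123 and 147 in KSFM-Ca2+ and 78.1, 65.7 and 75.8 in DKSFM. KSFM-Ca2+ replicate 3 stood above the other libraries of its line, and the lines did not overlap. The log2 fold change was -0.83 ± 0.09 (adjusted p 4.3e-05, limma). Because 42.5% of the windows of Tuba1a, 56.4% of those of Tuba1b and 55.4% of those of Tuba1c occur in another member, their sum is given too. It was 593 ± 23.3 in KSFM-Ca2+ and 306 ± 20.3 in DKSFM, 1.94-fold lower (exact permutation test, two-sided, p = 0.1). The sum may still depend on reads shared with genes outside the members. Counting those genes too, 66.7% of Tuba1a windows and 71.1% of Tuba1b windows are shared. The 489 other tested genes of chromosome 15 had a median log2 fold change of 0.02, and the 145 within 10 Mb of these genes a median of -0.05.

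Among the beta genes, Tubb5, a form found in most dividing cells, had the highest coverage of the tubulins in both lines. Its lead over Tubb4b may depend on how shared reads were treated, as 33.9% of Tubb4b windows are shared. Normalized coverage of Tubb5 was 1209.7, 1190.3 and 1254 in KSFM-Ca2+ and 515, 461 and 521 in DKSFM. Every DKSFM library lay far below every KSFM-Ca2+ library. The log2 fold change was -1.29 ± 0.05 (SE; adjusted p 9e-08, limma), a 2.45-fold fall.

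Tubb4b, also widely used and a main beta form of cilia, had 564, 559 and 599 in KSFM-Ca2+ and 419, 380.3 and 400.2 in DKSFM. The gap between the lines was larger than the range within either, and the fall was smaller than that of Tubb5, with a log2 fold change of -0.52 ± 0.04 (adjusted p 7.7e-06, limma). Within a library, Tubb5 over Tubb4b was 2.14, 2.13 and 2.09 in KSFM-Ca2+ and 1.23, 1.21 and 1.30 in DKSFM, a ratio that no scaling factor between libraries can move. The ratios did not overlap (exact permutation test, two-sided, p = 0.1, 1 of 5 ratios tested).

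Tubb6 is a divergent beta form of many tissues outside the nervous system, and in muscle it is known for disturbing the microtubule lattice when raised. It had the largest fold change of the 9 members. Normalized coverage was 599.6, 588 and 634 in KSFM-Ca2+ and 127, 110.2 and 122 in DKSFM, with no library of one line near the other. The log2 fold change was -2.34 ± 0.05 (SE; adjusted p 7.9e-09, limma), 5.08-fold lower in DKSFM, and 3.18% of all tested genes had a lower one. Tubb6 over Tubb5 within a library went from 0.496, 0.494 and 0.505 to 0.247, 0.239 and 0.234, so it fell further than Tubb5 did (exact permutation test, two-sided, p = 0.1).

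Tubb6 lies on chromosome 18 at chr18:67390717-67402749 on the plus strand. The 334 other tested genes of that chromosome had a median log2 fold change of -0.29, and the 87 within 10 Mb a median of -0.38. The tested genes whose log2 profiles over the 6 libraries, centred on their means, lay nearest to that of Tubb6 were Cotl1, an actin-binding protein, Tfrc, the transferrin receptor, and Acot7, an acyl-CoA thioesterase, at Euclidean distances of 0.0883, 0.0900 and 0.0946. Their log2 fold changes were -2.30, -2.34 and -2.32.

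The neuronal form Tubb3 and the related Tubb2a were the members that rose, both from low levels. Tubb3 had 4.65, 4.65 and 4.96 in KSFM-Ca2+ and 8.28, 6.89 and 8.90 in DKSFM. All DKSFM libraries were higher, with DKSFM replicate 2 the lowest of them, and the log2 fold change was 0.74 ± 0.10 (SE; adjusted p 0.000237, limma). With the 4 combined libraries alone the log2 fold change was 0.68 and the call was lost, with a spread from the DKSFM libraries alone. In the other alternatives the adjusted p lay between 8.7e-05 and 0.00178 (limma). The most similar profiles over the 6 libraries were those of the adhesion molecule Nectin1, the phospholipase Plcd1 and the lysophospholipid acyltransferase Lpcat3, at distances of 0.124, 0.148 and 0.148.

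Since Tubb3 is used to mark neurons, other neuronal genes were listed beside it. Of 9 neuron markers 0 passed the filter, 5 (Snap25, Nefl, Nefm, Elavl4 and Dcx) were listed at 0 in every library, and the sum of the 9 was 0.305, 0.494 and 0.354 in KSFM-Ca2+ and 0.212, 0.200 and 0.636 in DKSFM. Syt1 had the highest mean of the 9 in KSFM-Ca2+ (0.247) and Syp in DKSFM (0.243). Of 6 markers of Merkel cells, the touch-sensing cells of the epidermis, 2 were tested. Sox2, the most abundant, was called higher in DKSFM, as were 35.5% of all tested genes. Isl1 was not called, with a log2 fold change of 0.15 (adjusted p 0.634, limma) and libraries that overlapped between the lines. The sum of the 6 was 5.56, 5.14 and 3.54 against 8.71, 8.69 and 8.06, while Atoh1, Chga and Piezo2 were listed at 0 in every library. The part of either cell type in the values of Tubb3 was not tested.

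Tubb2a had 21.2, 21.1 and 21.8 in KSFM-Ca2+ and 29.5, 24.2 and 25.8 in DKSFM. The DKSFM libraries were all higher but spread over a range wider than the gap between the lines. The log2 fold change was 0.30 ± 0.07 (SE; adjusted p 0.00484, limma), and this call depended on the settings, with an adjusted p between 0.00213 and 0.146 over 18 alternatives. It was lost without KSFM-Ca2+ replicate 1 (0.0179), replicate 2 (0.0176) or replicate 3 (0.0126) and without DKSFM replicate 3 (0.0133). Tubb2b, the neighbour of Tubb2a on chromosome 13, was listed at 0 in all 6 libraries although 28% of its windows are identical to Tubb2a, and no fold change is given for it.

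**Figure D3:**
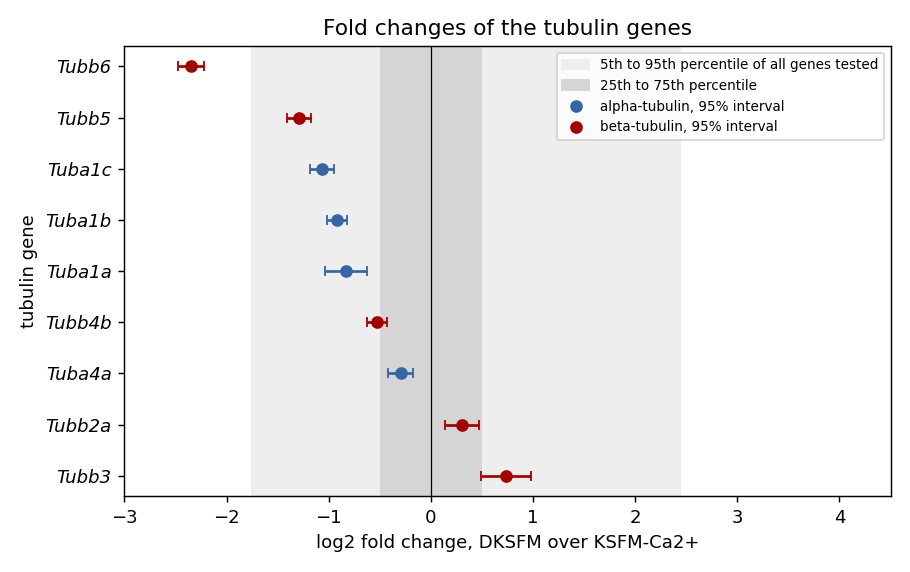
Points are log2 fold changes (DKSFM over KSFM-Ca2+) of the 9 tested tubulin genes with 95% intervals, alpha in blue and beta in red, over grey bands for the spread of all 12409 tested genes. Tubb6, at -2.34, lies outside the 5th to 95th percentile band of -1.76 to 2.44, and the other members lie inside it.

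In KSFM-Ca2+ the order of mean levels was Tubb5, Tubb6, Tubb4b, Tuba4a, Tuba1b, Tuba1c, Tuba1a, Tubb2a and Tubb3. The libraries of Tubb6 and Tubb4b overlapped, although Tubb6 was the higher in each of the 3, and every other pair of neighbours was separated. In DKSFM the order was Tubb5, Tubb4b, Tuba4a, Tuba1b, Tubb6, Tuba1c, Tuba1a, Tubb2a and Tubb3. There Tubb4b overlapped Tuba4a, Tuba1b overlapped Tubb6, and Tubb6 overlapped Tuba1c. Tubb6 thus went from rank 2 to rank 5, and from above 97.4% of all tested genes to above 83.8%. Ranks between members with and without shared windows may depend on how shared reads were treated.

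Summed alpha coverage was 1047, 1031 and 1115 in KSFM-Ca2+ and 733, 643 and 698 in DKSFM, and summed beta coverage was 2399, 2364 and 2513 against 1098, 982 and 1077. Neither sum overlapped between lines. The alpha sum was 1.54-fold and the beta sum 2.30-fold lower in DKSFM, each with an exact permutation p of 0.1. The alpha share of all tubulin coverage was therefore higher in DKSFM, at 40.0%, 39.6% and 39.3% against 30.4%, 30.4% and 30.7%, a difference of 9.15 percentage points (exact permutation test, two-sided, p = 0.1). A coverage share is a share of RNA, and the proteins were not measured. These sums, and the shares here and below, include members with shared windows and may depend on how shared reads were treated.

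Tubb6 lost the most share, from 17.4%, 17.3% and 17.5% in KSFM-Ca2+ to 6.94%, 6.78% and 6.85% in DKSFM. Tubb5 went from 35.1%, 35.1% and 34.6% to 28.1%, 28.3% and 29.3%. The 3 libraries of each line stood close together and apart from the other line for both genes. Tubb4b and Tuba4a fell in level but gained share, since they fell less than the total. Tuba4a had 13.4%, 13.5% and 13.7% in KSFM-Ca2+ and 22.5%, 22.1% and 21.6% in DKSFM, and Tubb4b had 16.4%, 16.5% and 16.5% against 22.9%, 23.4% and 22.5%.

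The Tuba1b share had means of 6.87% and 7.26% and the Tuba1c share 6.39% and 6.11%, differences of 0.391 and -0.281 percentage points with no overlap. The Tuba1b difference was 0.237 without KSFM-Ca2+ replicate 3 and 0.699 with the combined libraries alone. The Tuba1c difference was -0.171 with quantile normalization. The Tuba1a share, 3.73% ± 0.29 and 4.19% ± 0.132, overlapped between lines (exact permutation test, two-sided, p = 0.2, n = 3). Its difference was 0.46 percentage points, and 0.13 with the combined libraries alone. Tubb2a and Tubb3 stayed minor, at 0.612% and 0.136% in KSFM-Ca2+ and 1.52% and 0.459% in DKSFM. Of the 9 shares tested, 8 did not overlap and had the smallest exact permutation p that 3 against 3 allows, 0.1. Shares of a common total depend on each other, so these are not separate results. In level, the lines did not overlap for 42.1% of all tested genes with DKSFM lower and for 41.2% with DKSFM higher. Within the alpha family, Tuba4a over the sum of Tuba1a, Tuba1b and Tuba1c went from 0.786, 0.797 and 0.801 to 1.28, 1.27 and 1.23.

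**Figure D4:**
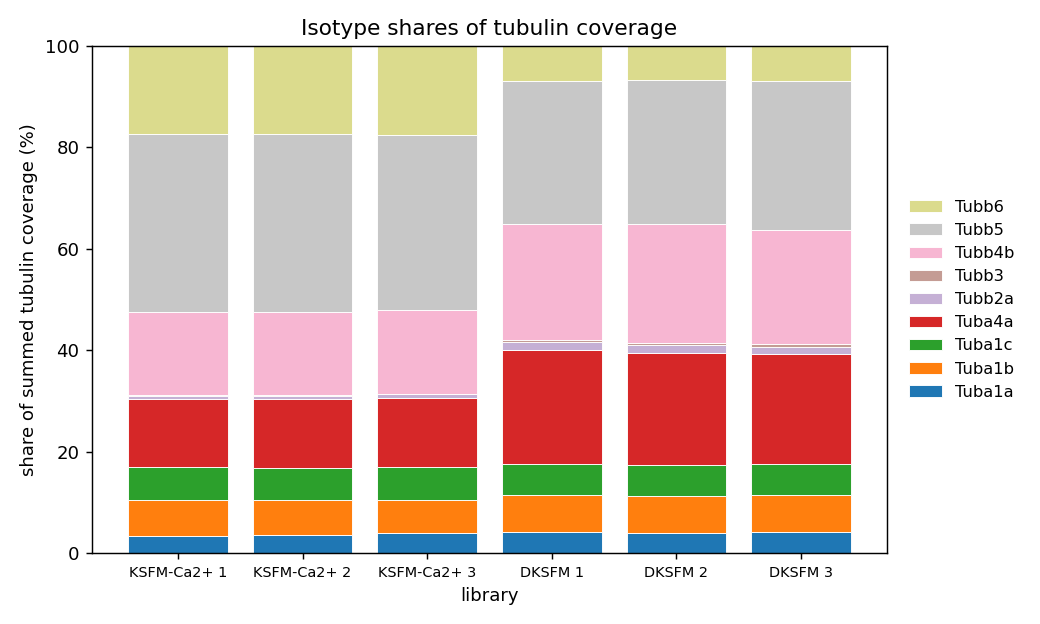
Each bar is 1 library, divided into the percent of summed tubulin coverage held by each gene, alpha genes at the bottom and beta genes above. Tubb6, at the top, has 17.4% on average in KSFM-Ca2+ and 6.86% in DKSFM, and the 4 alpha genes together have 30.5% and 39.6%.

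Promoters are shown for members that moved unequally, to let a reader compare the DNA just before the start of each. The RefSeq promoter table for GRCm38.p6 held 8 of the 10 members, and Tubb2b and Tubb6 had no entry. The 150 bases before the start were searched on both strands for the CCAAT box (CCAAT), the TATA box (TATAAA) and the GC box (GGGCGG), and no match overlapped another in the runs shown. Of 32851 promoters in the table, 24.5% held CCAAT, 7.57% TATAAA and 28.6% GGGCGG in that window. The runs below are 5′ to 3′ on the strand of the gene with matches on either strand in capitals, at chr17:35838302-35838451 (Tubb5, minus strand), chr2:25224703-25224852 (Tubb4b, minus strand), chr15:99029741-99029890 (Tuba1c, plus strand) and chr13:34078009-34078158 (Tubb2a, minus strand).
Tubb5: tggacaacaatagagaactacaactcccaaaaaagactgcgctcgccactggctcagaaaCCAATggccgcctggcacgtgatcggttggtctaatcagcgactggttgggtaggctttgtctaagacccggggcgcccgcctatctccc
Tubb4b: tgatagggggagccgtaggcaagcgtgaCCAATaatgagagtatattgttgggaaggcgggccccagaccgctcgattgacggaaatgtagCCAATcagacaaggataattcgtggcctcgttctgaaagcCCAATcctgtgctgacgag
Tuba1c: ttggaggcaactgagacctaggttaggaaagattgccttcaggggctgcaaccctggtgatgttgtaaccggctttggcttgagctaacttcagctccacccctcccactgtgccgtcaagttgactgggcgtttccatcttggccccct
Tubb2a: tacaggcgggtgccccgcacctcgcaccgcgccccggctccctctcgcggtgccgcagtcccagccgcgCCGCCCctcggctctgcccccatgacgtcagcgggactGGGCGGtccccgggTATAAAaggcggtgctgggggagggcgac
Tubb5, which fell, held 1 CCAAT, and Tubb4b, which fell less, held 3. Tuba1c, which fell, held none of the motifs, and Tubb2a, which rose, held 1 TATAAA and 2 GGGCGG. Tuba4a, which fell and is not shown, held 2 GGGCGG, as many as Tubb2a. Of the 150 bases, 5 of Tubb5 and 19 of Tuba4a lie in annotated exons. For Tuba1a and Tuba1b, which fell, all 150 bases lie in annotated exons and hold 1 GGGCGG each. For Tubb3, which rose, 129 of them do, and the window holds 1 CCAAT and 2 GGGCGG. These 3 windows are not shown either. A match is a description of letters.

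Other genes that make, place or modify microtubules were counted in 10 lists of 109 genes, of which 90 were tested. Of these, 24 rose and 42 fell in DKSFM in limma's test, against 35.5% of all tested genes called higher and 37.1% called lower. As shares of the lists these are 26.7% and 46.7%. With the 4 combined libraries alone 14 rose and 29 fell of 92 tested, 15.2% and 31.5%, against 24.8% and 23.5% of all 12809 genes tested with that setting. With the filter applied to every library 26 rose and 40 fell of 85 tested, 30.6% and 47.1%, against 34.6% and 38.6% of all genes. Of 14 chaperonin and prefoldin subunits 11 fell and 1 rose, with a median log2 fold change of -0.26, and only the prefoldin subunit Pfdn1 fell by at least 2-fold, from 263 ± 15.7 to 129 ± 3.80. Of 7 folding cofactors 4 fell and 1 rose, but 3 fell without KSFM-Ca2+ replicate 2 or 3 or without DKSFM replicate 2 or 3, and 1 fell with the combined libraries alone. Among them Tbcel, a tubulin-destabilizing protein, went from 41.9 ± 0.424 to 13.1 ± 0.530. Of 4 genes of tubulin mRNA autoregulation 1 fell, Cnot1 of the deadenylase complex, at a log2 fold change of -0.68. For Ttc5 itself the log2 fold change was -0.13 with an adjusted p of 0.0224.

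Of 11 genes of the gamma-tubulin ring complex, which starts new microtubules, 7 fell and 2 rose (63.6% and 18.2%, against 37.1% and 35.5% of all tested genes). The count that fell was 7 with each library left out in turn, while the count that rose was 1 without KSFM-Ca2+ replicate 1, 2 or 3 or without DKSFM replicate 3, and none was called higher without DKSFM replicate 2. With the combined libraries alone 5 fell and none was called higher, against 23.5% and 24.8% of all genes. Tubgcp2, a core subunit, went from 207 ± 10.3 to 59.4 ± 3.17, a log2 fold change of -1.80. Among 10 other tubulins 5 were tested, 1 rose and 2 fell, and 2 rose without KSFM-Ca2+ replicate 1. The major gamma-tubulin gene Tubg1 fell from 121 ± 3.33 to 69.7 ± 2.72. The lesser gene Tubg2 had 0.461 ± 0.0944 and 1.35 ± 0.115, and Tubb4a 0.940 ± 0.215 and 0.0333 ± 0.0577. Both lie near the limit of the filter and passed it mainly or only through the line where they are higher, so their calls are no support for a difference. With the filter applied to every library, which neither passes, 3 other tubulins were tested, 1 rose and 1 fell. Of the 4 stathmins, which bind free tubulin dimers, 2 were tested. Stmn4 was listed at 0 in all DKSFM libraries and at 0.5 to 1.0 in KSFM-Ca2+, and as it passed the filter only through KSFM-Ca2+, the direction of its call was fixed. With the filter applied to every library 1 stathmin was tested and it was not called. Tubg1, Tubb4a, Stmn4, Cnot1 and Ttc5 were named after their values were seen.

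For genes that bind or modify microtubules the called shares are given as higher and lower, beside 35.5% and 37.1% of all tested genes. Of 11 tested proteins that bind along the lattice 4 rose and 4 fell (36.4% each), and with the filter applied to every library 3 rose and 4 fell of 9. Map1b went from 7.28 ± 0.237 to 1.94 ± 0.0635, Map1s from 15.9 ± 0.641 to 6.41 ± 0.413 and Mapt, which encodes tau, from 9.08 ± 0.864 to 3.57 ± 0.308. Mid1, a ubiquitin ligase on microtubules, rose from 6.53 ± 0.865 to 14.1 ± 1.20. Mtus1, listed at 0 in all 3 KSFM-Ca2+ libraries, had normalized coverage of 136, 131 and 133 in DKSFM and passed the filter only through that line.

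Of 11 plus-end tracking proteins 5 rose and 3 fell (45.5% and 27.3%), and Clip1, which links growing ends to cargo and cortex, rose from 251 ± 1.88 to 613 ± 14.5. Of 8 tested minus-end proteins and severing enzymes 3 rose and 4 fell (37.5% and 50%). Camsap3, which anchors minus ends away from the centrosome in epithelial cells, rose 5.98-fold, from 76.4, 76.8 and 69.5 to 459, 433 and 441, a log2 fold change of 2.58 ± 0.05 (adjusted p 2e-09, limma). The severing enzymes Fignl1 and Katnal1 fell, from 129.7 ± 4.17 to 57.1 ± 2.51 and from 4.30 ± 0.379 to 1.98 ± 0.127. Of 17 tested tubulin-modifying enzymes 7 rose and 5 fell (41.2% and 29.4%), none by 2-fold. With the combined libraries alone 4 rose and 2 fell of 18 (22.2% and 11.1%), against 24.8% and 23.5% of all genes.

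**Figure D5:**
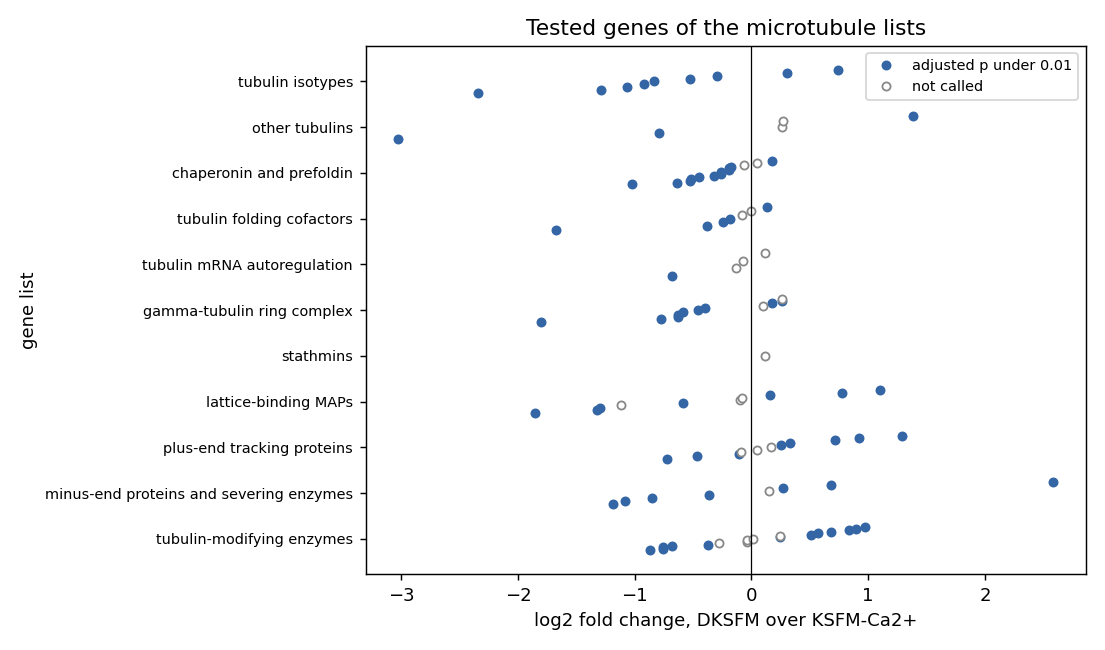
Each point is the log2 fold change (DKSFM over KSFM-Ca2+) of a tested gene in its list, filled where the adjusted p was under 0.01. Camsap3 has the point farthest right, at 2.58, and Mtus1 and Stmn4, listed at 0 throughout one line, are not drawn.

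Proliferation markers, like the tubulin sum, were lower in DKSFM. All 6 fell in DKSFM, where 37.1% of all tested genes were called lower, with a summed normalized coverage of 934, 944 and 939.8 in KSFM-Ca2+ and 453, 429.9 and 428 in DKSFM, and Pcna, a replication clamp, was the most abundant. Their log2 fold changes were -1.38 for Mki67, -1.22 for Pcna, -1.49 for the topoisomerase Top2a, -0.72 for the cyclin Ccnb1, -0.53 for the survivin gene Birc5 and -0.75 for the kinase Cdk1. The part of proliferation in the tubulin values was not tested.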

How the data were processed

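Poly(A) RNA of 6 libraries was sequenced in single reads of 85 bases, and the authors aligned it with STAR to mm10 with strand kept and quantified it with Salmon. The deposited values are coverage per gene to 1 decimal, not scaled between libraries; whether the authors computed this coverage with Salmon or from the alignments is not given in the sources used here. Depth per library is described by summed coverage, and no counting error was computed. Libraries were scaled by TMM (trimmed means of log ratios) with no weights, and genes with at least 0.5 in at least 3 libraries were tested with limma 3.58.1 (R 4.3.3) with an intensity trend on log2(coverage + 0.1), which understates changes of low genes. The fit was tested on simulated data in which far fewer genes changed than were called here. That run does not test the scaling where many genes change. Adjusted p-values are Benjamini-Hochberg over all 12409 genes, with calls under 0.01. Sums, shares and ratios were tested by exact permutation over libraries (scipy 1.17.1). Genes named by rule were all members and the keratinocyte and proliferation markers. Of each microtubule list they were those called past 2-fold whose mean reached 1 in either line (at most 3 per direction). The 3 profiles nearest to the members with the largest and smallest log2 fold change were named too. Genes of the other marker lists were named outside this rule, as were Tubg1, Tubb4a, Stmn4, Cnot1 and Ttc5. Members and lists were chosen with earlier results of these data known. Of the 6 files 4 (KSFM-Ca2+ replicate 3 and all DKSFM) are marked as combined, with no explanation. Fits on these alone take their spread from the DKSFM libraries. Alternatives changed the scaling, filter, pseudocount, trend, weights, threshold, block, share denominator and libraries used. Windows were searched in GENCODE M21 transcripts. The coding starts of the alpha genes are not reported here.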

Additional observations from a re-analysis of the deposited data

How the results depend on the processing

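The direction of the log2 fold change was the same for the 9 tested members under all 18 alternatives. Changing the filter, intensity trend, threshold or replicate block left the fold changes identical, so these settings are no check of direction. The call was lost in 9 of 162 cases, for Tubb2a, Tubb3 and Tuba4a. The number of members that fell stayed at 7, except for 6 with the 4 combined libraries alone. The number that rose was 2, but 1 with quantile normalization or without an intensity trend, 0 with the combined libraries alone, and 1 to 2 when each library was left out in turn. The cause was not tested. With the combined libraries alone, which leave 1 KSFM-Ca2+ library, 14 microtubule list genes of 92 rose (15.2%) in place of 24 of 90 (26.7%), while the share of all genes called higher went from 35.5% to 24.8%, the Tuba1a share differed by 0.13 percentage points in place of 0.46, and the Tuba1b share by 0.699. With quantile normalization the differences in share were -0.171 for Tuba1c, 0.294 for Tubb3 and -10.3 for Tubb6, and the cause was not tested. The log2 ratio of summed tubulin coverage was -1.002, in a range of -1.04 to -0.95 with each library left out, and the difference in alpha share ranged from 8.95 to 9.31. Correlations of deviations between same-numbered libraries of the lines were -0.005, 0.024 and -0.006, and over all pairs they lay between -0.0371 and 0.04. They cannot show whether libraries shared a culture or preparation. With a replicate block 2 members rose and 7 fell, while the sum stayed at -1.002 and the alpha share difference at 9.15 by construction. Low genes such as Tubb3 are given to 1 decimal.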

Other observations

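Summed markers of other skin cell types were far below the keratinocyte sum in both lines. Of those tested, Pdgfra, Mitf, Cd68 and Pecam1 were called higher in DKSFM and Twist2 lower, beside 35.5% and 37.1% of all tested genes. Of 8 fibroblast markers 2 were tested, Twist2, which passed the filter only through KSFM-Ca2+, had 7.34 ± 0.272 there and 0.0354 ± 0.0613 in DKSFM, Pdgfra rose from 1.11 ± 0.206 to 2.22 ± 0.119, and the other 6, Col1a1, Col1a2, Col3a1, Pdgfrb, Dcn and Lum, were listed at 0 in every library. Summed normalized coverage of the 6 melanocyte markers was 4.12, 3.96 and 4.60 in KSFM-Ca2+ and 17.3, 18.7 and 18.3 in DKSFM, most of it Mitf, which went from 3.51 ± 0.418 to 17.7 ± 0.648. Dct and Tyr were listed at 0 in every library, and Pmel had 0.594 ± 0.184 and 0.343 ± 0.145. The 5 immune cell markers summed to 10.8, 11.2 and 12.5 against 13.6, 18.9 and 20.6, most of it Cd68, with Cd3e and Adgre1 listed at 0 in every library. The 4 endothelial markers summed to 2.82, 3.16 and 3.30 against 8.28, 8.29 and 7.42, most of it Pecam1, with Cdh5 listed at 0 in every library.

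The chromosomes that carry the members differed in the median log2 fold change of their other tested genes. It was -0.42 on chromosome 1 (708 genes), where Tuba4a lies, and -0.43 on chromosome 8 (660 genes), where Tubb3 rose. It was 0.01 on chromosome 2 (960 genes), -0.17 on chromosome 13 (458 genes) and 0.13 on chromosome 17 (606 genes), where Tubb5 fell. Within 10 Mb the median was -0.55 around Tubb3 (110 genes) and 0.10 around Tubb4b (204 genes). Around Tubb2a it was -0.14 (74 genes), and around Tubb5 0.15 (238 genes).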
